A study of Mus musculus with 30 samples.

Results

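Among the 17477 genes counted in hippocampal RNA, 31 are known for their expression in the choroid plexus, and their levels were followed over all 30 mice. The 31 genes were given as a list of symbols, chosen by their place in the choroid plexus and with the levels of such genes in these same 30 libraries already in view, so those levels are given as a description. All 31 have a row in the table and all 31 passed the filter on low counts, so 0 are missing. Their RNA was measured in the hippocampus of adult C57 BL/6J mice of both sexes, 1 library a mouse. Socially isolated (SI) mice lived alone from weaning into adulthood and group-housed (GH) mice, the controls, lived several to a cage, which gave 8 SI females, 7 GH females, 7 SI males and 8 GH males. The labels name no transgene or drug. Each is named here by the animal number of its label, and the males hold the numbers 1 to 39 and the females 41 to 79.

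The choroid plexus is a sheet of epithelium over a vascular core that hangs in the ventricles of the brain and secretes the cerebrospinal fluid. Its epithelial cells pump ions, carry water through aquaporin-1, seal the barrier between blood and fluid with leaky tight junctions, and release carrier proteins such as transthyretin, the product of Ttr. The plexus of the lateral ventricle lies against the hippocampus, so a piece of it can come away with a dissected hippocampus or stay behind. In bulk tissue, fewer cells of a type and less RNA per cell cannot be told apart.

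Promoters of 4 of the genes are shown because these genes lie at different places in the order of levels described below and 1 of the listed genes, Otx2, encodes a homeodomain factor of the choroid plexus whose class binds the core letters TAATCC. Each window runs from 250 bases before to 50 bases after a start site of RefSeq on GRCm38.p6, is written 5′ to 3′ on the strand of the gene, and has TAATCC or its reverse complement GGATTA in capitals. The windows are chr9:44101520-44101819 on the plus strand for Mfrp, chr3:122044210-122044509 on the plus strand for Abca4, chr3:95904636-95904935 on the minus strand for Car14 and chr6:55336049-55336348 on the plus strand for Aqp1.
Mfrp: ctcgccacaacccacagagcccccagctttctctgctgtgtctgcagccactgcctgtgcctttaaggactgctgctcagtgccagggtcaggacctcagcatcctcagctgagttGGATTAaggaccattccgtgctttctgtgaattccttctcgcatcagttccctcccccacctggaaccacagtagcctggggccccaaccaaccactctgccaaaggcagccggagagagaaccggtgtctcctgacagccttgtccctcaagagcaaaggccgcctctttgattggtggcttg
Abca4: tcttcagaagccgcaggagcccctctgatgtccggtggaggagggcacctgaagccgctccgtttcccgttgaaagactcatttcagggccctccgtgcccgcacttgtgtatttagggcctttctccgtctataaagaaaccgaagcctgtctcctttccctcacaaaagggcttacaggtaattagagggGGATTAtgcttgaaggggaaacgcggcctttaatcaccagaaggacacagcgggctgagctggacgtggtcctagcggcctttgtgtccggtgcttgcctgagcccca
Car14: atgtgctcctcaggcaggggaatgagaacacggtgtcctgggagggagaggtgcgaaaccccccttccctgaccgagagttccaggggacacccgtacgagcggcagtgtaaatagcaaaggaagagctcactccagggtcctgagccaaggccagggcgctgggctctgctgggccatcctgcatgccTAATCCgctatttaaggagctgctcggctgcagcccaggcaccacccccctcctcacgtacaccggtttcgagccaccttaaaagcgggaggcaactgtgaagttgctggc
Aqp1: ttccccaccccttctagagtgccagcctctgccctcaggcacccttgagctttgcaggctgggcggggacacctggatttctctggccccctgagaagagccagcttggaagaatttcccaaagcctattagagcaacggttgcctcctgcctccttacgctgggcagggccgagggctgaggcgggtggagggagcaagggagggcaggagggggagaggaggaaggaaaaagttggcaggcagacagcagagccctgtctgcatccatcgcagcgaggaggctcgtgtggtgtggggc

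The letters were found in the Mfrp, Abca4 and Car14 windows and not in that of Aqp1. In a search of both strands they were present in 6 of the 35 windows of the listed genes (17.1%), those of Mfrp, Abca4, Car14, Igf2, Ace and Otx2, against 7.06% of all 32851 windows. RefSeq windows were matched for 24 of the 31 genes. A match is a run of letters and was not tested as a binding site.

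Libraries held 18809307 to 100844898 counts, with a median of 41297502. Values below are CPM, counts scaled to a common library size with TMM factors, and the choroid plexus level of a mouse is the mean log2 CPM of the 31 genes. Markers of hippocampal neurons were present in every mouse, with 8 markers summing to between 1984 and 3054 CPM. In the males, SI animals 25, 33 and 39 stood apart on the first principal component (54.1% of the variance), at 63.5 to 103, while the other males lay at 0.73 or below.

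Choroid plexus RNA was scarce in 5 of the 30 mice, GH males 1, 2 and 3 and SI males 7 and 8. Their choroid plexus level was 2.59, 1.94 and 1.497 in animals 1, 2 and 3 and 1.78 and 1.27 in animals 7 and 8. The 10 males numbered 15 to 39, 5 GH and 5 SI, lay between 3.90 and 4.75 with a median of 4.47, and the 15 females lay between 3.59 and 5.88 with a median of 4.88. The 5 mice did not overlap with either range. The 31 genes together took 0.0400% to 0.0697% of all counts in the 5 mice, against 0.262% to 0.491% in males 15 to 39 and 0.163% to 0.838% in females. Ttr alone took 0.00178% to 0.0129% in the 5 mice and 0.144% to 0.371% in males 15 to 39. In animal 8 Enpp2 had 2405 counts, Tmem72 1105 and Ttr 449. Which cells the RNA left in the 5 mice came from was not tested. This split of the males was chosen after the values were seen, and the differences it shows are a description without a test. The 5 mice held both housing groups and total counts from 19349259 to 66575824, within the range of the other mice.

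**Figure D1:**
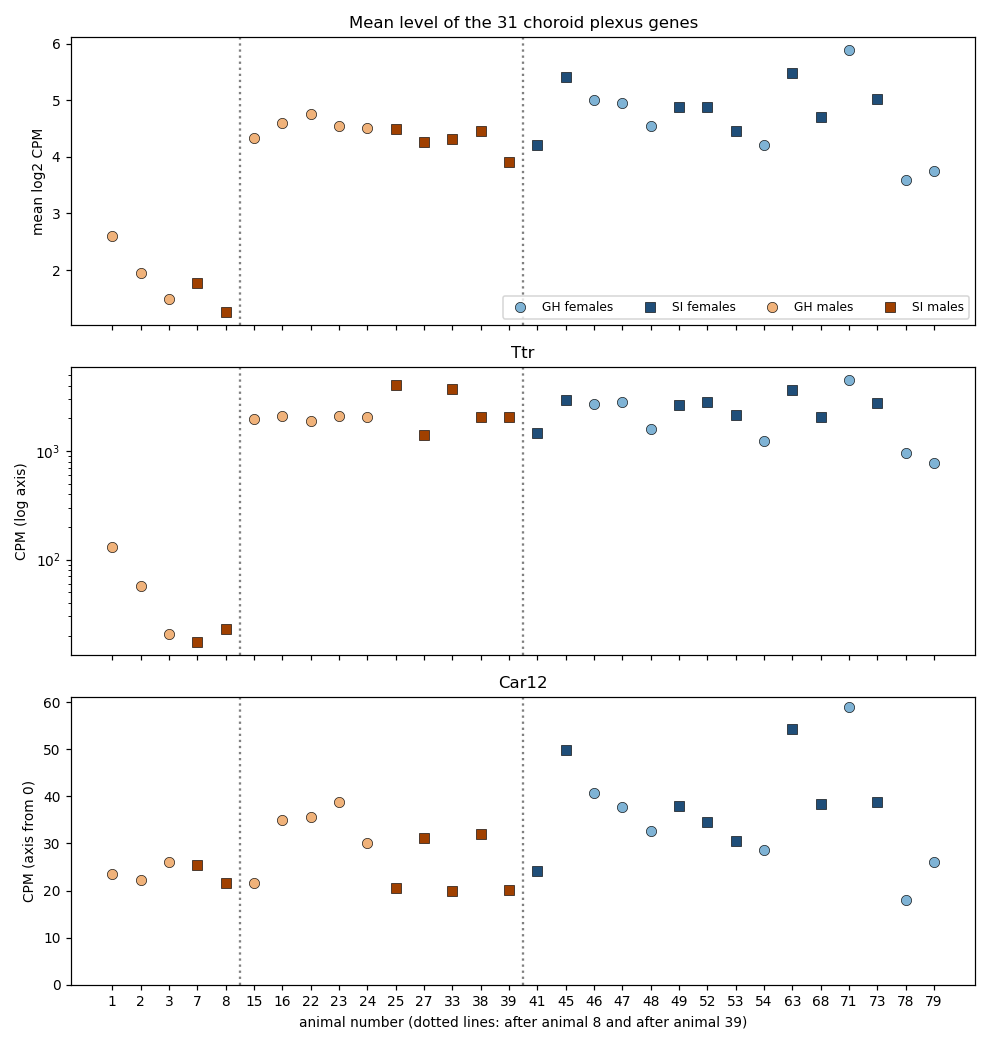
Mean log2 CPM of the 31 choroid plexus genes (top), CPM of Ttr on a log axis (middle) and CPM of Car12 on an axis from 0 (bottom) in each of the 30 mice, ordered by animal number, with circles for GH, squares for SI, orange to brown for males and blue for females. Animals 1, 2, 3, 7 and 8 lie far below all other mice in the upper panels, with Ttr at 17.6 to 132 CPM against 774 to 4495, and among them in the panel of Car12.

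Of the secreted proteins, transthyretin from Ttr (ENSMUSG00000061808, chromosome 18 from 20823751 to 20832825 of NCBIM37) carries thyroid hormone and retinol-binding protein. It had 132, 57.3 and 20.7 CPM in GH males 1, 2 and 3 and 17.6 and 23.1 CPM in SI males 7 and 8. In males 15 to 39 it had 1417 to 4027 CPM with a median of 2071, and in females 774 to 4495 CPM with a median of 2655. The highest of the 5 mice was thus 10.8-fold under the lowest of males 15 to 39, and the median of the 5 was 1.12% of theirs, the smallest share of all 31 genes. The share that a gene kept is given in this way below, as the median of the 5 mice in percent of the median of males 15 to 39. It covers the RNA of that gene from all cells in the tissue, not from the choroid plexus alone. Ranked per kilobase of transcript among 16439 genes, Ttr held places 15 to 27 in males 15 to 39 and 8 to 52 in females, and places 615 to 4563 in the 5 mice.

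Enpp2, which encodes autotaxin, was next in level per kilobase, at a median of 166 CPM per kilobase in males 15 to 39 against 1699 for Ttr. It had 124 to 200 CPM in the 5 mice, 390 to 892 CPM in males 15 to 39 and 357 to 2156 CPM in females, with no overlap of the 5 with the rest. Sostdc1, a secreted antagonist of BMP and Wnt signals, had 1.85 to 4.04 CPM in the 5 mice and 12.6 to 22.97 CPM in males 15 to 39. The growth factor gene Igf2 was the exception in this group, since its 107 CPM in animal 1 lay inside the range of males 15 to 39 (79.9 to 145 CPM) while the other 4 had 36.9 to 65.3 CPM. Igfbp2, which binds insulin-like growth factors, Lbp, the lipopolysaccharide-binding protein, and F5, coagulation factor V, were lower in all 5 mice than in any male of 15 to 39, with medians of 36.0%, 21.2% and 10.3% of those mice.

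Of the 31 genes, 26 were lower in each of the 5 mice than in each of the males 15 to 39, and 1.02% of all 16391 genes that passed the filter had that order. Against all 25 other mice the count was 25 of 31, with 0.738% of all genes, or 121 genes, in that order. The 5 genes that overlapped were Igf2, Slc13a4, Car12, Slc29a4 and Tmem72, and Igfbp2 overlapped the females only. Since the mice and the genes were both chosen with these levels known, the counts describe the pattern and do not support it.

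**Figure D2:**
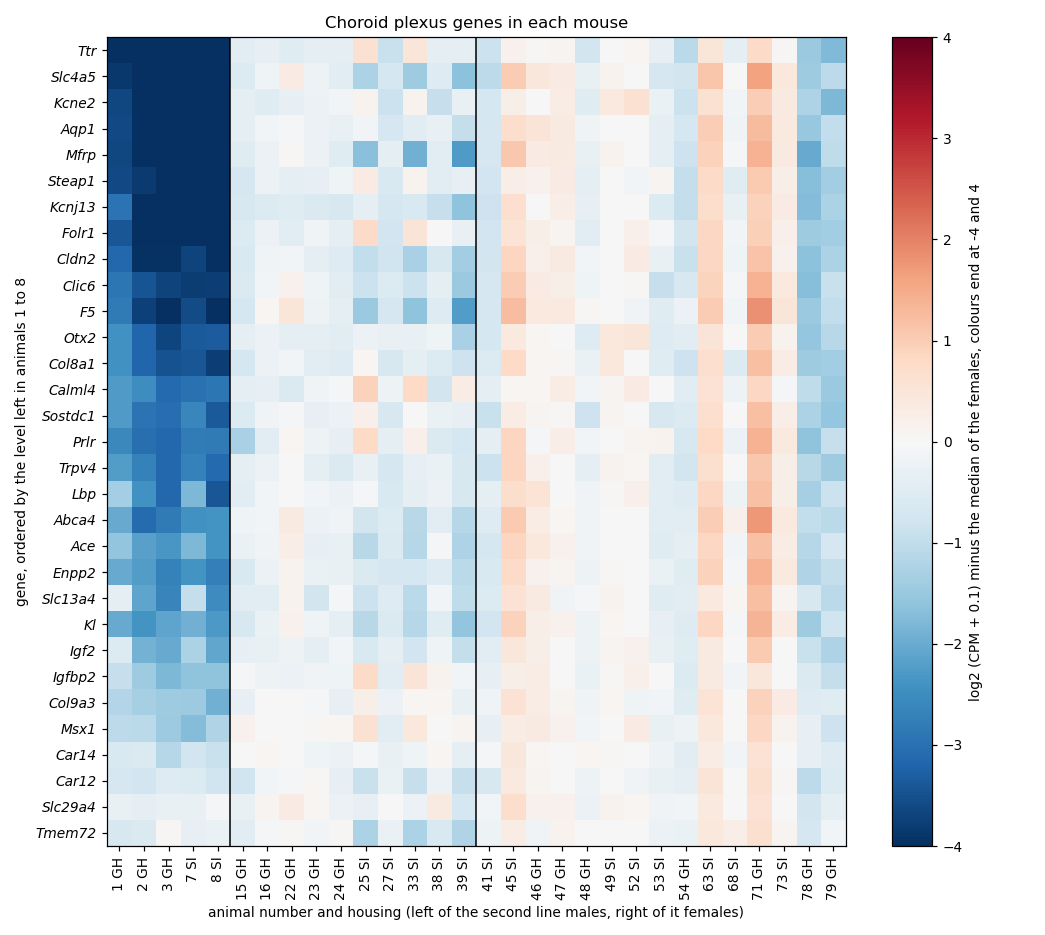
Log2 (CPM + 0.1) of each choroid plexus gene in each mouse minus the median of the 15 females, in blue where lower and red where higher, with the genes ordered by the level left in animals 1, 2, 3, 7 and 8. The first 5 columns are dark blue for the upper rows, where 6 genes keep under 5% of the median of males 15 to 39, and nearly white for the 4 lowest rows, where 63.4% to 99.6% is kept.

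Among the receptors and other membrane proteins, Folr1, a folate receptor that brings folate into the cerebrospinal fluid, had 1.81, 0.90 and 0.45 CPM in GH males 1, 2 and 3 and 1.05 and 0.57 CPM in SI males 7 and 8. It had 11.8 to 34.7 CPM in males 15 to 39 and 7.52 to 39.2 CPM in females. Kl, which encodes klotho, a co-receptor for fibroblast growth factor 23 and an aging-related protein, kept more. It had 16.5, 12.5 and 15.2 CPM in animals 1, 2 and 3 and 17.3 and 13.5 CPM in animals 7 and 8, all below the 22.2 to 74.9 CPM of males 15 to 39, with a median that was 33.1% of theirs.

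Prlr, the prolactin receptor, kept 17.4% and Ace, angiotensin-converting enzyme, kept 27.5% of the median of males 15 to 39. Mfrp, a frizzled-related membrane protein whose promoter is printed above with a motif, kept 4.13%, with 0.55 to 1.81 CPM in the 5 mice and 4.87 to 24.9 CPM in males 15 to 39. Calml4, placed in this group but a calmodulin-like protein rather than a receptor, kept 14.1%. Tmem72, a membrane protein, did not follow the others and had 43.7 to 71.3 CPM in the 5 mice, 28.3 to 71.1 CPM in males 15 to 39 and 43.5 to 107 CPM in females. It was also listed as a defining marker of the epithelium. Of the 12 markers on that list, 11 were lower in all 5 mice than in males 15 to 39, beside 1.02% of all genes. All 12 are also among the choroid plexus genes described here, so this recounts the same genes and is no separate evidence.

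The channels, transporters and enzymes of ion and fluid transport kept from 1.90% to 89.0%. Kcne2, a potassium channel subunit, had 1.21, 0.48 and 0.27 CPM in GH males 1, 2 and 3, and 0.16 and 0.15 CPM in SI males 7 and 8. Males 15 to 39 had 8.51 to 18.1 CPM and females 4.66 to 32.2 CPM, and the median left in the 5 mice was 2.09%. The bicarbonate transporter Slc4a5 kept 1.90%, with 0 counts in animal 8, where 3 counts would be 0.154 CPM, and at most 0.78 CPM in the other 4. Aqp1, the water channel whose printed promoter holds no motif, kept 2.43%, with 0.05 to 1.148 CPM against 7.79 to 14.3 CPM.

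Kcnj13, an inwardly rectifying potassium channel, had 0.31 to 1.87 CPM in the 5 mice and 4.82 to 11.4 CPM in males 15 to 39. Clic6, a chloride intracellular channel protein, had 2.67 to 5.17 CPM and 13.8 to 43.7 CPM. Steap1, a protein of the STEAP family, kept 4.57%, Trpv4, an osmosensitive cation channel, 18.7% and Abca4, a lipid transporter with a motif in its printed promoter, 22.9%. These genes did not overlap between the 5 mice and males 15 to 39.

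At the other end, the carbonic anhydrase Car14, also with a motif, kept 63.4% and still did not overlap, with 6.07 to 8.97 CPM against 10.4 to 14.2 CPM. The carbonic anhydrase Car12 had 21.6 to 26.1 CPM in the 5 mice, inside the range of males 15 to 39, which had a median of 30.7 CPM and reached 38.7 CPM. Slc29a4, a monoamine transporter, had a median of 31.4 CPM and at most 36.4 CPM, inside the 23.5 to 49.7 CPM of males 15 to 39. The sulfate transporter Slc13a4 was uneven within the 5 mice, at 14.9, 4.27 and 2.96 CPM in animals 1, 2 and 3 and 9.82 and 3.19 CPM in animals 7 and 8, against 8.99 to 20.9 CPM.

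Of the junction and matrix genes, Cldn2, a pore-forming claudin of leaky epithelia, kept 8.81%, Col8a1, a short-chain collagen, 11.9% and Col9a3, a chain of type IX collagen, 37.6%. Of the transcription factors, Otx2 kept 11.4%, with 1.93, 1.11 and 0.75 CPM in GH males 1, 2 and 3, 0.97 and 0.98 CPM in SI males 7 and 8, and 4.28 to 9.54 CPM in males 15 to 39. Msx1, a homeodomain factor that also marks the embryonic roof plate, kept 41.2%. Over all 31 genes the median was 17.4%, with 6 genes under 5%, 11 between 5% and 20%, 10 between 20% and 60% and 4 above.

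**Figure D3:**
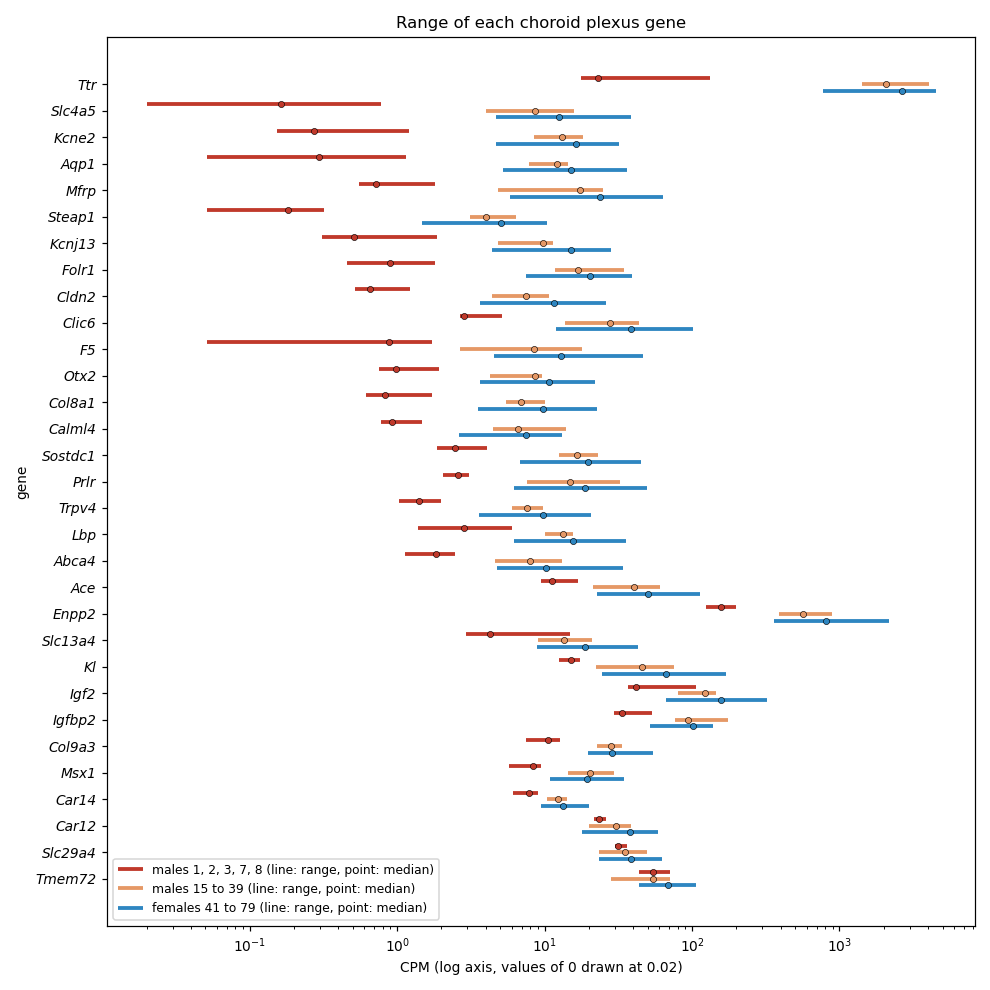
Range (line) and median (point) of CPM on a log axis for each choroid plexus gene in animals 1, 2, 3, 7 and 8 (red), males 15 to 39 (orange) and females 41 to 79 (blue), with genes ordered by the level left in the first of these. The red ranges lie clear of the orange ones in 26 genes, and they overlap in Slc13a4, Igf2, Car12, Slc29a4 and Tmem72.

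Within the 5 mice the genes did not fall evenly. Animal 1 had the highest CPM of the 5 for 26 of the 31 genes and animal 8 the lowest for 15. For Ttr the spread within the 5 mice, from 17.6 to 132 CPM, was wider as a ratio than that within males 15 to 39, from 1417 to 4027 CPM.

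Among the females no such break was seen, but the genes rose and fell together from mouse to mouse. GH female 71 had the highest CPM for 30 of the 31 genes, and GH females 78 and 79 had the lowest for 20 and 11. The highest female exceeded the lowest by 2.11-fold for Car14 to 10.8-fold for Mfrp, with a median of 6.04-fold. Each gene was correlated with the mean of the other 30 over the 15 females. Pearson's r had a median of 0.965 and Spearman's rho one of 0.950, with r from 0.872 for Tmem72 to 0.989 for Enpp2 and above 0.9 for 29 genes. Without animals 78 and 79, which lay farthest from the median level, the median r was 0.952. The mice share the table and its scaling, so these values are descriptions across mice and carry no p.

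Genes that did not separate in the 5 males did vary with the others here. Car12 had an r of 0.965, Slc13a4 of 0.939 and Slc29a4 of 0.931 in females. Ttr itself had an r of 0.958, Kl of 0.983 and Otx2 of 0.948.

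In males 15 to 39 the genes moved together less. The median r was 0.693 over the 10 mice, from -0.432 for Calml4 to 0.949 for Enpp2, and the median rho was 0.600. Without animals 39 and 22, which lay farthest from the median level, the median r was 0.276. Leaving out the farthest mice also narrows the range of levels, which can lower r by itself. The levels of males 15 to 39 also spanned less than those of females, with a median ratio of the highest to the lowest mouse of 2.29.

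SI males 25, 33 and 39, which stood apart on the first principal component, differed from the other 7 males of 15 to 39 by an amount that varied with transcript length. Of the 31 genes, 12 were lower in all 3 mice than in all 7 others and 1 was higher, and 27.4% and 24.7% of all genes had these orders. Mfrp, with a longest transcript of 4252 bases, had 7.37, 6.28 and 4.87 CPM in animals 25, 33 and 39 and 17.1 to 24.9 CPM in the other 7. Calml4, at 861 bases, had 14.1, 12.9 and 9.15 CPM and 4.47 to 7.20 CPM, and it was the gene that was higher.

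Ttr, at 1219 bases, had 4027 and 3709 CPM in animals 25 and 33, the highest of any male, and 2075 CPM in animal 39, inside the 1417 to 2107 CPM of the other 7. Tmem72, at 3585 bases, had 28.3, 28.4 and 30.1 CPM against 45.3 to 71.1 CPM. The mean log2 difference was above 0 for 8 of the 10 genes with a transcript under 2000 bases and for 3 of the 21 longer ones. Its Spearman correlation with length was -0.684 over the 31 genes and -0.601 over 15592 genes, values across genes, which are not independent replicates. Prlr had the longest transcript, 9900 bases, and a mean difference of 0.46, against this order. Some markers of other cells also stood apart in these 3 mice. All 3 blood genes were higher in them than in the other 7, summing to 774, 647 and 705 CPM in animals 25, 33 and 39 against 159 to 334 CPM. The sums were 69.3 to 83.3 CPM against 46.1 to 63.3 CPM for ependymal cells, 288 to 339.5 CPM against 206 to 272 CPM for endothelial cells and 2180 to 2286 CPM against 2307 to 3037 CPM for hippocampal neurons. Gene by gene these lists were divided. Of 10 ependymal markers 6 were higher in all 3 mice and 1 was lower, and of 8 endothelial markers 3 were higher and 3 lower. Of 8 neuron markers 0 were higher and 3 lower, where 24.7% of all genes were higher in this way and 27.4% lower. The sums overlapped for leptomeningeal fibroblasts, at 124 to 161 CPM against 106 to 152 CPM, and for thalamus, at 42.0 to 83.4 CPM against 35.4 to 146 CPM. The part of these markers in the differences of the 31 genes was not tested.

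**Figure D4:**
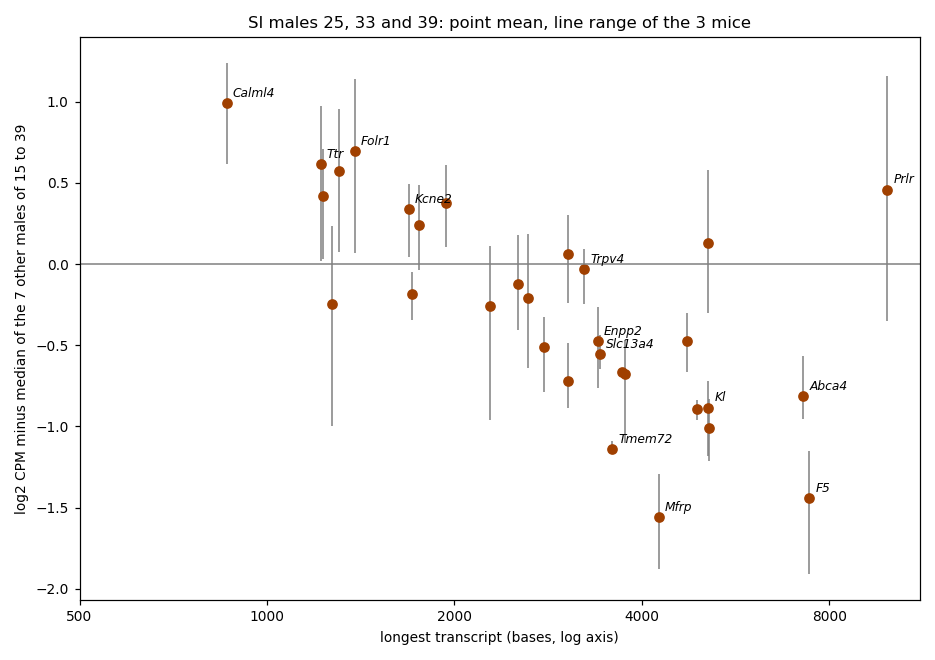
Log2 CPM of each choroid plexus gene in SI males 25, 33 and 39 minus the median of the other 7 males of 15 to 39 (point for the mean of the 3 mice, line for their range) against the length of the longest transcript in bases on a log axis. Most short transcripts, such as Calml4, lie above 0 and most long ones, such as Mfrp and F5, below it. Exceptions are Kcnj13 and Car14 among transcripts under 2000 bases and Prlr, Col8a1 and Col9a3 among the longer ones.

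Housing was tested within each sex over the whole table, since the study asked what isolation changes in the hippocampus. In females 0 of the 31 genes were DEGs between SI and GH at an adjusted p under 0.05 in edgeR's quasi-likelihood test, where 3.89% of all 16026 genes were. At an unadjusted p under 0.05 there were 2 genes, against 20.2% of all genes, and with DESeq2 and the same surrogate variables 0 were DEGs, where 7.88% of all genes were. The surrogate variables came from the same counts. The first in females was -0.532 in GH 78, with the lowest choroid plexus level, and 0.325 in GH 71, with the highest. It was -0.044 in GH 79, with the next lowest level. How much of the shared level the surrogate variables took up was not tested. Without surrogate variables 0 of the 31 and 0 of all 16026 genes were DEGs in edgeR. With the position digit of the labels as a factor in their place, 0 of the 31 and 0 of all genes were DEGs too. The count at an unadjusted p under 0.05 moved with single mice. It was 17 without GH 71 (18.5% of all genes), 14 without GH 47 (20.9%), 9 without SI 41 (22.3%) and 8 without GH 46 (23.1%). The Log2FC of SI from GH was above 0 for 28 of 31 genes, with a median of 0.14, against 52.8% and a median of 0.01 over all genes. The 31 genes varied together from mouse to mouse. Counts of their signs, here and in the fits below, are therefore not counts of independent genes and were not tested. With each female left out in turn the median of the 31 ranged from 0.07 without SI 63 to 0.31 without GH 71, and 24 to 31 of the genes were above 0. The ranges of SI and GH overlapped for all 31 genes in both sexes, where 0.317% of genes in females and 0.0732% in males did not overlap.

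Otx2 had the smallest p among the genes that were higher in SI females. It had 6.53 to 15.6 CPM in SI females with a median of 12.9, and 3.63 to 21.95 CPM in GH females with a median of 7.78. Its Log2FC was 0.32 with an SE of 0.12 and an adjusted p of 0.138 in edgeR. The GH females held both the highest mouse, 71, and the lowest, 78, and enclosed the SI females.

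Kcne2 had 9.99 to 25.04 CPM in SI and 4.66 to 32.2 CPM in GH females, with a Log2FC of 0.37 ± 0.16 (SE) and an adjusted p of 0.213. Ttr had 1464 to 3675 CPM in SI and 774 to 4495 CPM in GH females, with a Log2FC of 0.27 ± 0.15 (SE) and an adjusted p of 0.343. For the other defining genes of the epithelium, Log2FC was 0.14 for Kl (adjusted p = 0.586), 0.30 for Folr1 (0.279), 0.13 for Clic6 (0.542), 0.26 for Kcnj13 (0.362) and 0.18 for Sostdc1 (0.497), with SE from 0.11 to 0.15. Msx1 had the smallest p among the genes that were lower, at a Log2FC of -0.04 ± 0.09 (SE) and an adjusted p of 0.850. Without GH female 47, 3 genes were DEGs, namely Ttr, Kcnj13 and Kcne2, all higher in SI, with Log2FC of 0.45, 0.43 and 0.54, where 4.66% of all genes were DEGs.

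In males 0 of the 31 genes were DEGs in edgeR's quasi-likelihood test, as were 0.0% of all 15833 genes, and 0 had an unadjusted p under 0.05, against 13.0% of all genes. With DESeq2 and the same surrogate variables 0 of the 31 were DEGs, beside 0.278% of all genes. The second surrogate variable of the males ran from -0.562 to -0.0192 in animals 1, 2, 3, 7 and 8. In the other males it ran from -0.126 to 0.329. What it took from the values of the 31 genes was not tested. Log2FC was below 0 for 24 genes and above 0 for 7, with a median of -0.04. With DESeq2 16 were above 0 and the median was 0.0013. With single males left out all 31 were below 0 without SI 38, with a median of -0.79, and 30 were below 0 without GH 3, with a median of -0.58, while 17 were above 0 without GH 23, with a median of 0.02. Tmem72 had the smallest p among the lower genes, at -0.24 ± 0.12 (SE) with an adjusted p of 0.402, and Slc29a4 among the higher ones, at 0.13 ± 0.12 (SE) with an adjusted p of 0.652.

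The standard errors of these defining genes were wider than in females, and both male groups held mice with scarce choroid plexus RNA. Ttr had 17.6 to 4027 CPM in SI males with a median of 2051 and 20.7 to 2107 CPM in GH males with a median of 1922, at a Log2FC of 0.06 ± 0.53 (SE) and an adjusted p of 0.976. The Log2FC of Kcne2 was -0.60 ± 0.33 (SE) with an adjusted p of 0.428. For Kl it was -0.06 ± 0.22 (adjusted p = 0.939), for Folr1 -0.04 ± 0.29 (0.964), for Clic6 -0.19 ± 0.32 (0.830), for Kcnj13 -0.29 ± 0.29 (0.680), for Otx2 0.08 ± 0.28 (0.926) and for Sostdc1 -0.02 ± 0.22 (0.983), all in edgeR with SE.

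The sign of these male values moved with the mice and with the covariates. Without the 5 mice of low level, 26 of 31 genes were lower in SI and the median was -0.20, with 8 genes at an unadjusted p under 0.05 (22.3% of all genes) and 0 DEGs (0.00638% of all genes). Kcne2 then had a Log2FC of -0.51 ± 0.10 (SE) and an adjusted p of 0.0886. Without those mice and without surrogate variables 6 genes were DEGs, all lower (F5, Kl, Tmem72, Slc4a5, Abca4 and Cldn2), where 9.05% of all genes were lower DEGs and 24.5% were DEGs in either direction. Those 10 males include SI animals 25, 33 and 39, and the longest transcripts of the 6 genes were from 3044 to 7430 bases. The part of transcript length in these calls was not tested gene by gene. Without animals 25, 33 and 39, with surrogate variables, 0 of the 31 genes were DEGs (0.00616% of all genes) and 20 of 31 were higher, with a median of 0.04. Without those 3 animals and without surrogate variables the direction was the opposite, with 30 of 31 lower, a median of -0.40 and 0 DEGs (0.0% of all genes).

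**Figure D5:**
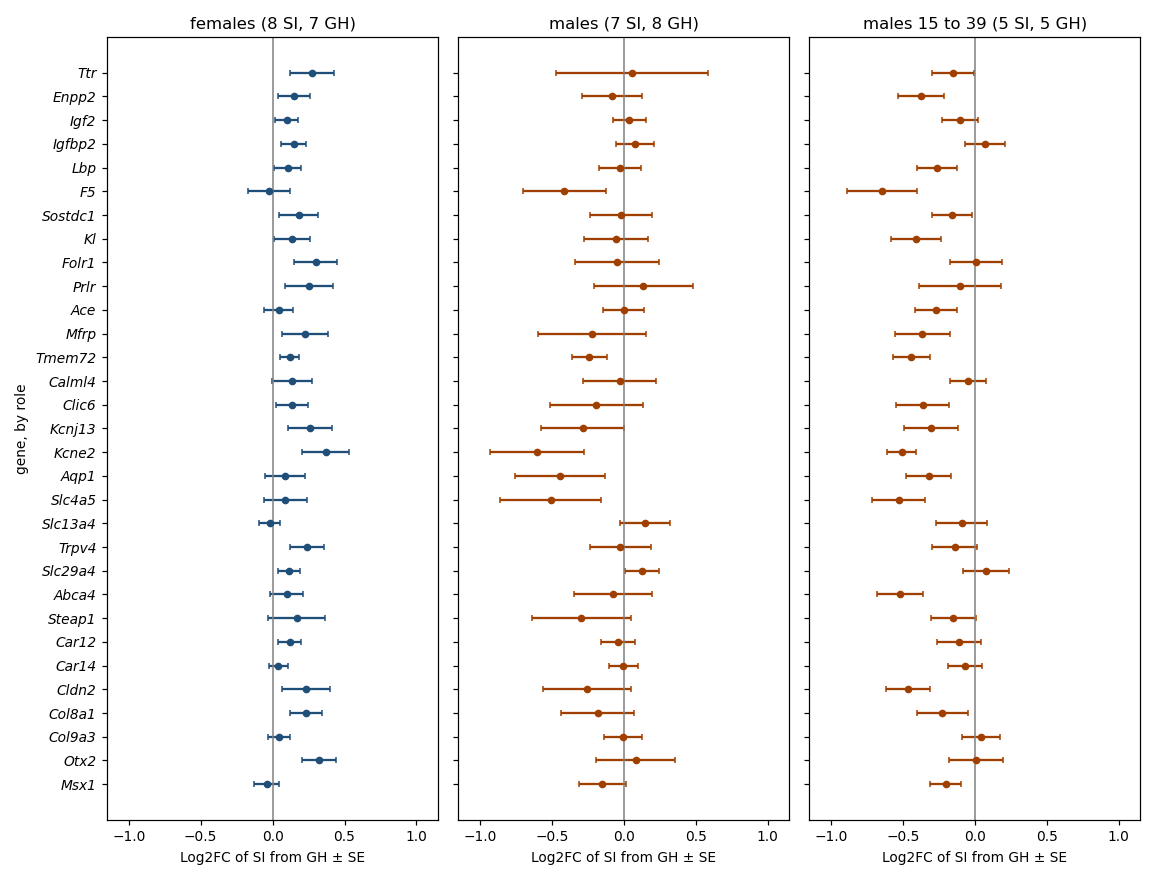
Fitted Log2FC of SI from GH with its SE for each choroid plexus gene in females (left), in all males (middle) and in males 15 to 39 (right), with genes ordered by role and a grey line at 0. In females 28 of 31 points lie above 0, in all males 24 lie below 0 with wide bars for genes such as Ttr, and in males 15 to 39 26 lie below 0. No gene passed an adjusted p of 0.05 in these fits. The genes varied together across mice, so the points are not independent.

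The housing effect was not shown to differ between the sexes for any of the 31 genes. In the interaction of sex and housing 0 genes passed an adjusted p under 0.05 in edgeR (0.0% of 16391 genes), 0 did with DESeq2 (0.0488% of all genes), and 1, Tmem72, had an unadjusted p under 0.05, against 7.49% of all genes. The male minus the female Log2FC was below 0 for all 31, with a median of -0.46, and Tmem72 had a value of -0.25 ± 0.11 (SE) with an adjusted p of 0.641. These 31 signs are not independent, because the genes varied together. Ttr had -1.05 ± 0.93, Kl -0.38 ± 0.35, Folr1 -0.75 ± 0.63, Clic6 -0.51 ± 0.55, Kcnj13 -0.73 ± 0.59, Otx2 -0.47 ± 0.48, Sostdc1 -0.46 ± 0.42 and Kcne2 -1.22 ± 0.70, each with its SE and with adjusted p from edgeR of 0.712 or above. Without the 5 mice of low level 0 of the 31 passed (0.0549% of all genes), the median was -0.02 and 18 of 31 were below 0.

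Females against males was tested in the same fit, and here sex and the range of animal numbers are the same split and cannot be told apart. Of the 31 genes 1 was higher in females at an adjusted p under 0.05, where 12.8% of all genes were, and 0 were lower. That gene was Tmem72, at a Log2FC of 0.22 ± 0.06 (SE) and an adjusted p of 0.00859 in edgeR. Slc29a4 was the gene with the smallest p, and the only one, with a Log2FC below 0, at -0.09 ± 0.08 (SE) and an adjusted p of 0.482. The median Log2FC was 0.46 with 30 of 31 above 0. Ttr had 0.75 ± 0.45 (adjusted p = 0.232), Kl 0.46 ± 0.18 (0.0688), Folr1 0.58 ± 0.32 (0.181), Clic6 0.50 ± 0.29 (0.202), Kcnj13 0.79 ± 0.31 (0.0598), Otx2 0.43 ± 0.25 (0.203), Sostdc1 0.28 ± 0.22 (0.359) and Kcne2 0.81 ± 0.36 (0.0948), with SE.

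The number of calls between the sexes followed the mice and the covariates in the fit. Without surrogate variables 13 of the 31 genes were higher in females and the median Log2FC was 0.84, where 6.74% of all genes were higher. Without animals 1, 2, 3, 7 and 8, with surrogate variables, it was 0 of 31 and the median Log2FC was 0.03, where 0.323% of all genes were higher. Without animals 25, 33 and 39 it was also 0 of 31, with a median of -0.08 and 24 genes below 0, where 0.03% of all genes were higher. In the fit of all 30 mice the first surrogate variable was 0.590, 0.535 and 0.374 in animals 25, 33 and 39. The second ran from -0.0207 to 0.609 in animals 1, 2, 3, 7 and 8 and from -0.336 to 0.262 in the other mice. The part of these variables in the number of calls was not tested.

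A second list of 30 choroid plexus genes that holds none of the 31, and that was also written with earlier results known, gave the same picture by mouse. Of these 30, 20 were lower in all 5 mice than in all males 15 to 39, beside the 1.02% of all genes. Ecrg4, which encodes a secreted peptide precursor, had 1.16 to 3.72 CPM in the 5 mice and 16.4 to 43.9 CPM in males 15 to 39. The keratin gene Krt18 had 0.34 to 1.16 CPM against 2.99 to 9.32 CPM. Trpm3, a cation channel also found in neurons, overlapped, with 64.3 to 86.9 CPM against 48.9 to 131 CPM. The list's mean level had an r of 0.994 with the choroid plexus level over the 15 females and of 0.615 over males 15 to 39, with rho of 0.996 and 0.612. Without the 2 mice farthest from the median level in each, r was 0.990 in females and 0.301 in males.

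For housing, 0 of these 30 were DEGs in edgeR in females and 0 in males, beside 3.89% and 0.0% of all genes, with 1 lower DEG in females by DESeq2, where 5.31% of all genes were lower DEGs. For females against males 11 were higher and 0 lower, where 12.8% of all genes were higher. Cd59a, an inhibitor of the complement membrane attack complex, had the smallest p of these, at 0.63 ± 0.11 (SE) and an adjusted p of 0.00144 in edgeR. Without animals 1, 2, 3, 7 and 8, 1 of the 30 was higher, where 0.323% of all genes were.

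The 10 genes outside the 31 whose log2 CPM was most like the choroid plexus level over the 30 mice were Wdr86, Pla2g5, 1110059M19Rik, Ccdc135, Rbm47, Sema3b, Krt8, Krt18, Slc2a12 and 1500015O10Rik, the last being Ecrg4 under an older symbol. The second list holds 6 of them. Because the mice fall apart into low and other levels, likeness is given within the females and within males 15 to 39. In females r was from 0.926 for 1500015O10Rik to 0.983 for Ccdc135. In males 15 to 39 it was lower for each gene, from -0.194 for 1500015O10Rik to 0.919 for Slc2a12. The 10 genes were picked by r over all 30 mice, which include these females and males, so neither range is separate evidence. Wdr86, the gene most alike over all mice, had 0.48 to 1.19 CPM in the 5 mice, 3.30 to 5.25 CPM in males 15 to 39 and 2.82 to 11.0 CPM in females.

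Markers of other cells near the hippocampus were read beside these levels. Of 10 markers of ependymal cells, which line the ventricles, Dynlrb2 and Cfap126 were lower in all 5 mice than in males 15 to 39, beside 1.02% of all genes. All 10 summed to 30.3 to 51.3 CPM in the 5 mice, 46.1 to 83.3 CPM in males 15 to 39 and 41.5 to 102 CPM in females. Of 10 markers of leptomeningeal fibroblasts 0 were lower in all 5 mice, with sums of 80.9 to 168, 106 to 161 and 86.6 to 222 CPM. The counts were 0 of 8 for endothelial cells, 0 of 3 blood genes with a row, 0 of 8 for hippocampal neurons and 0 of 6 for thalamus, the last being tissue that can be cut with the hippocampus. The sums of the neuron markers were 2402 to 3054 CPM in the 5 mice and 2180 to 3037 CPM in males 15 to 39. Overlapping ranges did not mean equal levels. The median sum in the 5 mice against males 15 to 39 was 32.0 against 55.7 CPM for ependymal cells and 83.0 against 126.6 CPM for leptomeningeal fibroblasts. It was 201 against 266 CPM for blood, 40.0 against 48.4 CPM for thalamus, 266.5 against 244 CPM for endothelial cells and 2824 against 2388 CPM for hippocampal neurons.

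Over the 15 females several of these lists had a positive r with the choroid plexus level. It was 0.752 for ependymal cells, 0.626 for hippocampal neurons, 0.616 for leptomeningeal fibroblasts, 0.560 for endothelial cells, 0.189 for thalamus and -0.140 for blood. Without the 2 females farthest from the median level these were 0.606, 0.578, 0.474, 0.181, -0.117 and -0.102. Over males 15 to 39 r was -0.276 for ependymal cells, 0.556 for hippocampal neurons and -0.644 for blood, and -0.0331, 0.349 and -0.281 without the 2 farthest males, and from -0.00778 to 0.159 for the other lists. Of these lists, 0 had a marker at 0 in all mice. The part of tissue taken at dissection in any of these differences was not tested.

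Some of the 31 genes overlap a neighbour, and the strand setting of the counting is not given in the sources used here. Mfrp shares its strand and locus with C1qtnf5, Prlr with Agxt2 and Clic6 with 2410124H12Rik, and Kcnj13 lies opposite Gigyf2, Car14 opposite Aph1a, Igf2 opposite Igf2as and Col9a3 opposite Tcfl5 in GENCODE vM1, so a share of their reads is uncertain.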

How the data were processed

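Hippocampal poly(A) RNA of 30 mice was sequenced, 1 library a mouse. The authors used Trimmomatic 0.39 for trimming and Salmon 1.8.0 for quantification, and they deposited 1 table of estimated counts per gene and mouse as whole numbers without normalization, with GRCm39 named in the submitters' processing notes. The table holds 17477 Ensembl genes, each with at least 100 counts in all, and 16439 (94.1%) were matched to symbols and to transcript lengths of GENCODE vM1 on NCBIM37. Each of the 30 columns was assigned to a mouse through its label, which also gave the animal number. The labels name each mouse as a separate animal.

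The analysis used edgeR 4.0.16 in R 4.3.3. Low genes were removed with filterByExpr, which asked for a minimum count of 10 and a total of 15. The remaining genes were scaled with TMM and tested with glmQLFit and glmQLFTest within each sex, with surrogate variables from svaseq of sva 3.50.0 (20 permutations, seed 1), 3 in females and 2 in males. The interaction of sex and housing and the difference between the sexes came from 1 fit of the 4 groups with 4 surrogate variables. DEGs had a Benjamini-Hochberg adjusted p under 0.05 over all genes tested, and SE is the size of Log2FC divided by the square root of F. Log2 CPM used a prior count of 2. The fits were tested on simulated data with known changes.

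The 31 genes, the marker lists and the tests were chosen with earlier results of these data known. Log2FC, SE and adjusted p were given for Ttr, Kl, Folr1, Clic6, Kcnj13, Otx2, Sostdc1 and Kcne2, for the higher and the lower gene with the smallest p in each contrast, and for every gene called. Alternatives were no surrogate variables, DESeq2 1.42.0, its size factors, no filter, the position digit of the labels as a factor, a prior count of 0.5, and leaving out each mouse. The fits without animals 1, 2, 3, 7 and 8 and without 25, 33 and 39 were added after seeing the data. Hbb-bs and Hbb-bt of the blood list have no row. Total counts were at least 18809307, but Slc4a5, Aqp1, F5, Steap1 and Kcne2 had 3 counts or fewer in at least 1 of animals 3 and 8, where counting error also limits precision. In mice 15 to 79 each of the 31 genes had at least 49 counts.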

Additional observations from a re-analysis of the deposited data

Results flagged for a closer look

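In the 4 groups of mice, the 31 genes and the choroid plexus level gave 128 sets of log2 CPM values, and in 1 of them a mouse lay apart from its group. Slc13a4, the sulfate transporter, was at 1.694 log2 CPM in SI male 8, while the next lowest SI male was at 3.175. The gap was 0.603 of the range of the 7 SI males, above the limit of Dixon's test. Chance alone flags about 1 in 20 such sets. Animal 8 is 1 of the 5 mice with little choroid plexus RNA and had the lowest level of all, and the part of that level in the Slc13a4 value was not tested.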

How the results depend on the processing

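The levels did not depend on the scaling tried. With DESeq2's size factors, a prior count of 0.5 or without animals 3 and 8, the mice farthest from the median choroid plexus level, the count of genes in which those of the 5 mice in the comparison lay below all males 15 to 39 was 26 each time. No paired analysis was possible because each animal number belongs to 1 mouse and the groups share none. Between the sexes, the count of genes called was 13 without surrogate variables (6.74% of all genes were higher), 0 without animals 1, 2, 3, 7 and 8 and 0 without animals 25, 33 and 39. For SI against GH in males it was 6 without animals 1, 2, 3, 7 and 8 and surrogate variables, and the cause was not tested. Leaving out each mouse in turn gave 0 to 3 genes called in females, the 3 without GH 47, and 0 in males, where without SI 27 15.3% of all genes were called.

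Log2FC of the 8 defining genes did not change sign in females. In males the sign changed as follows. Without surrogate variables Folr1 was 0.65, Sostdc1 0.21 and Kcne2 0.17, with DESeq2 Folr1 was 0.24 and Sostdc1 0.060, and with the position digit Folr1 was 0.73, Clic6 0.0088, Kcnj13 0.16, Sostdc1 0.39 and Kcne2 0.43. Without animals 1, 2, 3, 7 and 8 Ttr was -0.15 and Folr1 0.0084, and without surrogate variables as well Folr1 was 0.50, Otx2 -0.029, Sostdc1 0.092 and Kcne2 0.021. Without animals 25, 33 and 39 Kl was 0.10, Folr1 0.20, Clic6 0.14, Kcnj13 0.12 and Sostdc1 0.13, and without surrogate variables as well Ttr was -0.55 and Otx2 -0.14. With each male left out in turn, Ttr ranged from -1.63 to 0.43, Kl from -0.78 to 0.034, Folr1 from -0.99 to 0.092, Otx2 from -0.69 to 0.26 and Sostdc1 from -0.74 to 0.031.

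In the interaction, Ttr was 0.27, Folr1 0.31 and Sostdc1 0.028 without surrogate variables, and Clic6 was 0.10, Otx2 0.13 and Sostdc1 0.064 without animals 1, 2, 3, 7 and 8. Between the sexes, Ttr was -0.049, Clic6 -0.074, Otx2 -0.075 and Sostdc1 -0.14 without animals 1, 2, 3, 7 and 8. Without animals 25, 33 and 39 Ttr was -0.29, Folr1 -0.16, Clic6 -0.20, Kcnj13 -0.030, Otx2 -0.34, Sostdc1 -0.28 and Kcne2 -0.12. The spread between mice limits the male comparison, with an SE of Log2FC for Ttr of 0.53 in males and 0.15 in females.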
